A study of Komagataella pastoris with 15 samples.

Results

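The transcripts described here are those of the formaldehyde-assimilating branch of methanol metabolism in Pichia pastoris, a methylotrophic yeast labelled Komagataella pastoris. They were followed over a fed-batch fermentation in which the cells made recombinant human serum albumin (rhHSA). The branch was taken as 3 locus tags of the 5039 on the array, PAS_chr3_0832 (DAS1), PAS_chr3_0834 (DAS2) and PAS_chr3_0841 (DAK). The tags were fixed by name and not by their values; the scanner files hold the tags alone, and the gene names were given with the choice of members. Total RNA from fermentors numbered 1 to 3, each of 40 L, was labelled with a single dye and hybridised to 15 Agilent arrays, 3 in each of 5 phases. Growth began on glycerol (logarithmic growth), and the next samples were starved for 40 min once glycerol feeding had ended, with methanol feeding starting. The later phases were cells adapted to methanol as their sole carbon source, the phase labelled as the peak of the rhHSA expression rate, and the end of fermentation, when rhHSA had declined to 220 mg/L. All groups carried the rhHSA process. The sources used here do not give the host strain or the promoter that drove rhHSA.

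In methylotrophic yeasts methanol is oxidised to formaldehyde inside peroxisomes by alcohol oxidase. Formaldehyde is then either oxidised for energy or assimilated. Dihydroxyacetone synthase, a peroxisomal transketolase encoded by the closely similar paralogs DAS1 and DAS2, transfers a glycolaldehyde unit from xylulose 5-phosphate to formaldehyde and yields dihydroxyacetone and glyceraldehyde 3-phosphate. Dihydroxyacetone kinase, encoded by DAK, phosphorylates dihydroxyacetone to dihydroxyacetone phosphate, so that both products enter central carbon metabolism. DAS genes are known as strongly methanol-regulated genes of this yeast.

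Each level is a log2 signal from which the array's own 75th percentile, over all gene probes, was subtracted, so a difference of 1 is a 2-fold difference. Each tag has 1 probe printed as 3 spots. All 45 spots of each member were well above background and 0 were saturated. The brightest spot, one of DAS2 at the end of fermentation, reached 71.4% of the scanner's saturation value. Between 98.7% and 99.96% of all probes were above background on each array. The arrays came from 2 scans. Scan 1 (7 arrays) held fermentor 1 of the earlier 4 phases and the whole end of fermentation. The remaining 8 arrays were on scan 2. Scan therefore enters every test as a block, and changes within each scan stand beside the pooled ones. In logarithmic growth, array 2 and array 3 could not be told apart beyond spot noise (1.94% of tags past a threshold of 0.05) and were counted as 1 sample in that phase's mean, where n = 2. The fits and ratio tests take them as 2 arrays. With their mean as 1 array, the members kept their call in 11 of the 12 comparisons with logarithmic growth, all but DAK on the labelled peak (-0.24, limma adjusted p = 0.0653). The like share of tags was 6.70% to 8.85% between end of fermentation arrays and 7.67% for glycerol end arrays 2 and 3. It was 55.6% for methanol arrays 2 and 3 and 51.4% for labelled peak arrays 2 and 3. All of these were counted as separate arrays, so the fits include the small spread of the close ones. Nothing beyond the fermentor number says how separate the cultures were, so p-values measure the spread between these arrays. The 3 arrays labelled rhHSA peak correlated across tags more closely with logarithmic growth (r from 0.968 to 0.977 within a scan) than with methanol adaptation (0.907 to 0.923) or the end of fermentation (0.898 to 0.902). Their values are therefore given as those of the arrays so labelled, and without these 3 arrays each member kept its direction and call in the 6 comparisons of the other phases.

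DAS1 was lowest in logarithmic growth, was only slightly higher in starved cells, higher again in methanol-adapted cells and highest at the end of fermentation. On logarithmic growth arrays 1 to 3 its level was 0.74, 1.05 and 0.89, a mean of 0.85 ± 0.17 (SD, n = 2). After glycerol feeding ended it was 1.10, 1.22 and 1.24, a mean of 1.19 ± 0.075 (SD, n = 3). These 2 glycerol phases lay close together without overlap. In methanol-adapted cells DAS1 read 2.35, 2.40 and 2.03, a mean of 2.26 ± 0.20 (SD, n = 3). On the arrays labelled rhHSA peak it read 1.16, 1.19 and 1.16, a mean of 1.17 ± 0.020 (SD, n = 3). Its last phase, the end of fermentation, read 3.20, 3.15 and 3.21, a mean of 3.19 ± 0.031 (SD, n = 3). All 3 methanol arrays were above every array of the glycerol phases and of the labelled peak, and all 3 end arrays were above every methanol array. How many of all tags separated in this way was not counted, here or for the other genes and pairs.

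DAS2, the other synthase gene, shared the low and high ends of this course but was already raised in the starved cells. It read 1.00, 1.42 and 1.40 on logarithmic growth arrays 1 to 3, a mean of 1.21 ± 0.29 (SD, n = 2). In starved cells it read 2.16, 2.40 and 2.46, a mean of 2.34 ± 0.16 (SD, n = 3). The starved cells thus lay well above the growing cells on each array. In methanol-adapted cells the levels were 2.80, 2.94 and 2.31, a mean of 2.68 ± 0.33 (SD, n = 3), and array 3 overlapped with the end of glycerol feeding. On the arrays labelled rhHSA peak DAS2 read 1.32 on array 1 and 1.58 on array 3, a mean of 1.45 ± 0.18 (SD, n = 2). All 3 spots of array 2 had been flagged as outliers by the scanner software, so array 2 was missing from this mean and from the fits of DAS2; with flagged spots kept it read 1.75. When fermentation ended the levels were 3.51, 3.48 and 3.60, a mean of 3.53 ± 0.061 (SD, n = 3), above all other arrays.

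DAK, which acts on the product of both synthases, moved over a narrower range and was highest at the end of fermentation. Its 3 arrays of logarithmic growth read 2.03, 1.39 and 1.38, a mean of 1.71 ± 0.46 (SD, n = 2). Their plain mean was 1.60, which, unlike 1.71, weights the scans as the means of the next 3 phases do. In starved cells DAK read 2.45, 1.63 and 1.80, a mean of 1.96 ± 0.43 (SD, n = 3). In each of the earlier 4 phases the array of scan 1 was the highest. Methanol-adapted cells read 1.96, 1.39 and 1.18, a mean of 1.51 ± 0.40 (SD, n = 3). The arrays labelled rhHSA peak read 1.85, 0.97 and 1.23, a mean of 1.35 ± 0.45 (SD, n = 3). The end of fermentation, all on scan 1, read 2.73, 2.60 and 2.80, a mean of 2.71 ± 0.10 (SD, n = 3). For DAK the fitted difference of scan 1 from scan 2 was 0.70 ± 0.063 (SE) in log2 units. For DAS1 and DAS2 it was -0.06 ± 0.073 and -0.19 ± 0.12 (SE). Over all tags the scan difference had an SD of 0.73, so the SDs of DAK in the earlier 4 phases hold a scan difference that those of DAS1 hardly show. In those phases scan 1 held fermentor 1 alone, so scan and fermentor cannot be told apart there.

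**Figure D1:**
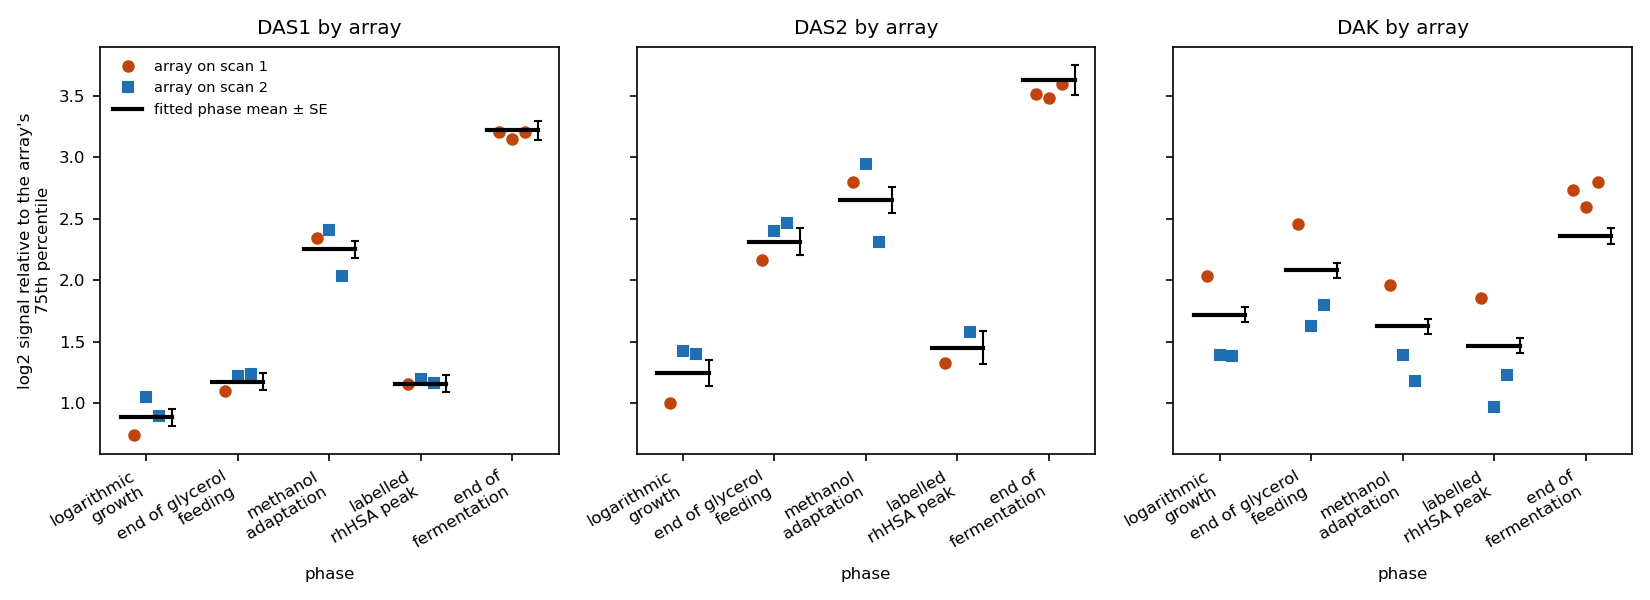
Level of DAS1, DAS2 and DAK as log2 signal minus each array's 75th percentile (y axis) in the 5 phases (x axis); each point is 1 array, circles for scan 1 and squares for scan 2, and bars are fitted phase means ± SE midway between the scans. DAS1 rises at methanol adaptation and DAS2 already at the end of glycerol feeding, all 3 genes are highest at the end of fermentation, and DAK alone shows scan 1 above scan 2 by 0.70.

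Tested over the 5 phases together with limma's F-test, all 3 genes differed (adjusted p = 2.78e-09 for DAS1, 4.13e-07 for DAS2 and 7.43e-06 for DAK). So did 96.0% of the 5024 tags tested, close to the members' 3 of 3. The 5 phases form 10 pairs, and DAS1 passed the test in 9 of them, DAS2 in 8 and DAK in 8. Between 58.0% and 79.4% of all tags passed in each pair. How the calls over all tags divided into higher and lower depended on the scaling in some pairs. With quantile normalization the higher share of calls at the end of fermentation was 48.5% against logarithmic growth (38.0% with the 75th percentile) and 49.6% against the end of glycerol feeding (39.1%). It was 47.6% for methanol adaptation against the end of glycerol feeding (36.4%) and 60.9% for the labelled peak against logarithmic growth (48.7%). For the end of fermentation against the labelled peak it was 50.3% in the authors' values (40.1%). Those values cover 3915 of 5039 probes, so the tags differ as well as the scaling. Where a called pair had arrays on both scans, the change had the same direction on both (5 of 5 pairs for DAS1, 4 of 4 for DAS2 and 4 of 4 for DAK). The pooled change draws on the same arrays, so this is a description and not a separate test. How many of all called tags did likewise was not counted.

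The first comparison set the end of glycerol feeding, where cells had starved for 40 min and methanol feeding was starting, against logarithmic growth. The phases also differ in culture time and feeding, which cannot be told apart from starvation here. All 3 members were higher in the starved cells, where 36.3% of all tags were called higher. DAS2 rose by 1.07 ± 0.15 (SE) in log2 units, or 2.10-fold (limma adjusted p = 6.60e-05). The rise was 1.16 on scan 1 and 1.02 on scan 2. DAS1 rose by only 0.29 ± 0.097 (SE), or 1.22-fold (limma adjusted p = 0.0172), and DAK by 0.36 ± 0.085 (SE), or 1.28-fold (limma adjusted p = 0.00221). DAS2 was higher on all 3 starved arrays than on any growing array. The DAS1 call was lost without logarithmic growth array 1 (0.21, adjusted p = 0.0967), array 3 (0.28, 0.0503) or glycerol end array 3 (0.27, 0.0533). Without the scan term the adjusted p was 0.0552 for DAS1 and 0.351 for DAK, and with the fermentor number as a replicate block in place of scan that of DAK was 0.0650; their adjusted p over all alternatives ran from 8.85e-05 to 0.155 for DAS1 and from 8.69e-05 to 0.351 for DAK.

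When starved cells were compared with methanol-adapted cells, DAS1 rose, DAK fell and DAS2 did not pass the test. DAS1 rose by 1.07 ± 0.097 (SE), or 2.11-fold (limma adjusted p = 1.84e-06). Scan 1 alone gave 1.25 and scan 2 alone 0.99. Of all tags 6.79% changed by more than DAS1 at this step, 41.3% by more than DAK and 54.2% by more than DAS2. DAK changed by -0.45 ± 0.085 (SE; limma adjusted p = 0.000614). Scan 1 alone gave -0.49 and scan 2 alone -0.43. Without the scan term its adjusted p was 0.285, the highest over its alternatives, which began at 4.84e-06. DAS2 differed by 0.34 ± 0.15 (SE), with a 95% interval from 0.0049 to 0.67 (limma adjusted p = 0.0711). Called higher were 1 of the 3 members and 23.0% of all tags, and called lower were 1 of 3 and 40.3%.

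The DAS2 value at this step rested on the methanol arrays. It was 0.57 without array 3 (limma adjusted p = 5.49e-05), 0.18 without array 1 (0.345) and 0.23 without array 2 (0.228). It was also called with quantile normalization, at 0.69, and with array weights, at 0.59, and its adjusted p over all alternatives ran from 1.22e-05 to 0.498. On methanol array 3 the 200 brightest tags of the series had a median level of 2.23, against 2.62 on array 1 and 2.73 on array 2, so other bright tags were low on that array as well. Their part in the DAS2 result was not tested.

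Set against logarithmic growth on glycerol, methanol-adapted cells had both synthase transcripts raised to a like extent. DAS1 was higher by 1.37 ± 0.097 (SE), or 2.58-fold (limma adjusted p = 5.86e-08). DAS2 was higher by 1.41 ± 0.15 (SE), or 2.65-fold (limma adjusted p = 5.17e-06). The 3 methanol arrays lay above the 3 growth arrays for both genes, by 1.61 on scan 1 and 1.24 on scan 2 for DAS1, and by 1.79 and 1.21 for DAS2. Called higher were 2 of the 3 members and 35.0% of all tags. The change of DAS1 was exceeded in size by 18.3% of tags, that of DAS2 by 17.1% and that of DAK by 92.7%. DAK differed by -0.09 ± 0.085 (SE; limma adjusted p = 0.333), with a 95% interval from -0.28 to 0.093. Its sign was not settled, being 0.013 with quantile normalization and 0.033 in the authors' processed values. Quantile normalization also moved the median change of all tags in this comparison, from -0.11 to 0.025.

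The arrays labelled rhHSA peak had lower synthase transcripts than methanol-adapted cells. DAS1 changed by -1.09 ± 0.097 (SE; limma adjusted p = 5.60e-07). Scan 1 alone gave -1.19 and scan 2 alone -1.04. DAS2 changed by -1.20 ± 0.17 (SE; limma adjusted p = 5.33e-05), with -1.47 and -1.04 on the scans. In both genes all arrays of the labelled peak with a value were below all methanol arrays, a separation whose share over all tags was not counted. Called lower were 2 of the 3 members and 34.1% of all tags. DAK differed by -0.16 ± 0.085 (SE; limma adjusted p = 0.105, from 0.00107 to 0.688 over the alternatives) and was called lower without array 3 of the labelled peak (-0.22), with quantile normalization and in the authors' processed values.

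Against logarithmic growth the same arrays differed little. DAS1 was higher by 0.28 ± 0.097 (SE; limma adjusted p = 0.0282) and DAK lower, at -0.25 ± 0.085 (SE; limma adjusted p = 0.0228), while DAS2 differed by 0.21 ± 0.17 (SE; limma adjusted p = 0.311, 95% interval from -0.16 to 0.58). Called higher were 1 of 3 members and 28.3% of tags, and called lower 1 of 3 and 29.7%. The DAS1 call was lost without logarithmic growth array 1 (0.20) or 3 (0.26) and without labelled peak array 1 (0.26) or 2 (0.27). The DAK call was lost without logarithmic growth array 2 (-0.24) or 3 (-0.24) and without labelled peak array 2 (-0.17). With the fermentor number as a replicate block in place of scan the adjusted p was 0.0592 for DAS1 and 0.220 for DAK. Over the alternatives the adjusted p ran from 0.000559 to 0.282 for DAS1 and from 0.00267 to 0.609 for DAK. DAS2 was called higher without methanol array 3 (0.22, adjusted p = 0.0154) and with array weights (0.17, 0.0416), and its adjusted p otherwise reached 0.693.

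Against the starved cells, DAS2 on the arrays labelled rhHSA peak was lower by a fitted -0.86 ± 0.17 (SE; limma adjusted p = 0.000802) and DAK by -0.61 ± 0.085 (SE; limma adjusted p = 4.10e-05). DAS1 differed by -0.02 ± 0.097 (SE; limma adjusted p = 0.893), with a 95% interval from -0.23 to 0.20. Called lower were 2 of 3 members and 36.1% of tags. The DAK call was lost without the scan term (adjusted p = 0.119, the highest over its alternatives, which began at 5.42e-07).

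The end of fermentation had the highest level of all 3 transcripts. Against the arrays labelled rhHSA peak DAS1 was higher by 2.06 ± 0.11 (SE), or 4.17-fold (limma adjusted p = 4.61e-09). DAS2 was higher by 2.17 ± 0.19 (SE), or 4.50-fold (limma adjusted p = 8.39e-07), and DAK by 0.89 ± 0.095 (SE), or 1.86-fold (limma adjusted p = 2.76e-06). All 3 end arrays lay above the arrays of the labelled peak in each gene, a separation that for DAK holds the scan difference. Of all tags 31.0% were called higher. On scan 1 alone, with 1 array of the labelled peak, the differences were 2.03, 2.21 and 0.86 for DAS1, DAS2 and DAK.

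Against methanol-adapted cells the synthase genes were higher at the end of fermentation by close to 2-fold. The difference was 0.97 ± 0.11 (SE; limma adjusted p = 5.19e-06) for DAS1 and 0.97 ± 0.17 (SE; limma adjusted p = 0.000323) for DAS2. For DAK it was 0.73 ± 0.095 (SE; limma adjusted p = 1.91e-05). All 3 members and 33.9% of all tags were called higher, and the differences on scan 1 alone were 0.84, 0.73 and 0.75. The change of DAS1 was exceeded in size by 29.7% of tags, that of DAS2 by 29.5% and that of DAK by 41.9%.

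Against logarithmic growth, DAS1 was higher at the end of fermentation by 2.33 ± 0.11 (SE), or 5.04-fold (limma adjusted p = 1.96e-09). DAS2 was higher by 2.38 ± 0.17 (SE), or 5.20-fold (limma adjusted p = 1.97e-07). Of all tags 3.88% had a larger difference than DAS1, 3.66% a larger one than DAS2 and 47.9% a larger one than DAK. DAK was higher by 0.64 ± 0.095 (SE), or 1.56-fold (limma adjusted p = 5.88e-05). All 3 members were called higher, as were 28.1% of tags. Each member was higher on 3 of 3 end arrays than on any growth array. For DAK this separation holds the scan difference of 0.70, since growth arrays 2 and 3 were on scan 2. Here and in the other pairs, the share of all tags without overlap was not counted. The median change of all tags here was -0.22, and -0.01 with quantile normalization, under which all 3 members were still called higher.

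Against the end of glycerol feeding, DAS1 was higher at the end of fermentation by 2.04 ± 0.11 (SE; limma adjusted p = 7.21e-09) and DAS2 by 1.31 ± 0.17 (SE; limma adjusted p = 3.07e-05). DAK was higher by 0.28 ± 0.095 (SE; limma adjusted p = 0.0176), a call lost without end of fermentation array 3 (0.24, adjusted p = 0.0620) and with the fermentor number as a replicate block beside scan (0.30, 0.0608). Its adjusted p over the alternatives began at 4.61e-07, in the authors' processed values without a scan term, where the difference was 0.60. All 3 members were called higher, as were 29.3% of tags.

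The end of fermentation lay wholly on scan 1, and for DAK the size of these rises in the scanner values depended on the scan term. Without it the DAK differences were 0.75 against the end of glycerol feeding, 1.11 against logarithmic growth, 1.20 against methanol adaptation and 1.36 against the labelled peak. With scan as a block they were 0.28, 0.64, 0.73 and 0.89. On scan 1 alone they were 0.26, 0.68, 0.75 and 0.86. The authors' processed values gave 0.60, 0.94, 0.90 and 1.17 with scan as a block. Without the scan term those values gave 0.60, 0.94, 0.91 and 1.17, so there the rises hardly depended on it.

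**Figure D2:**
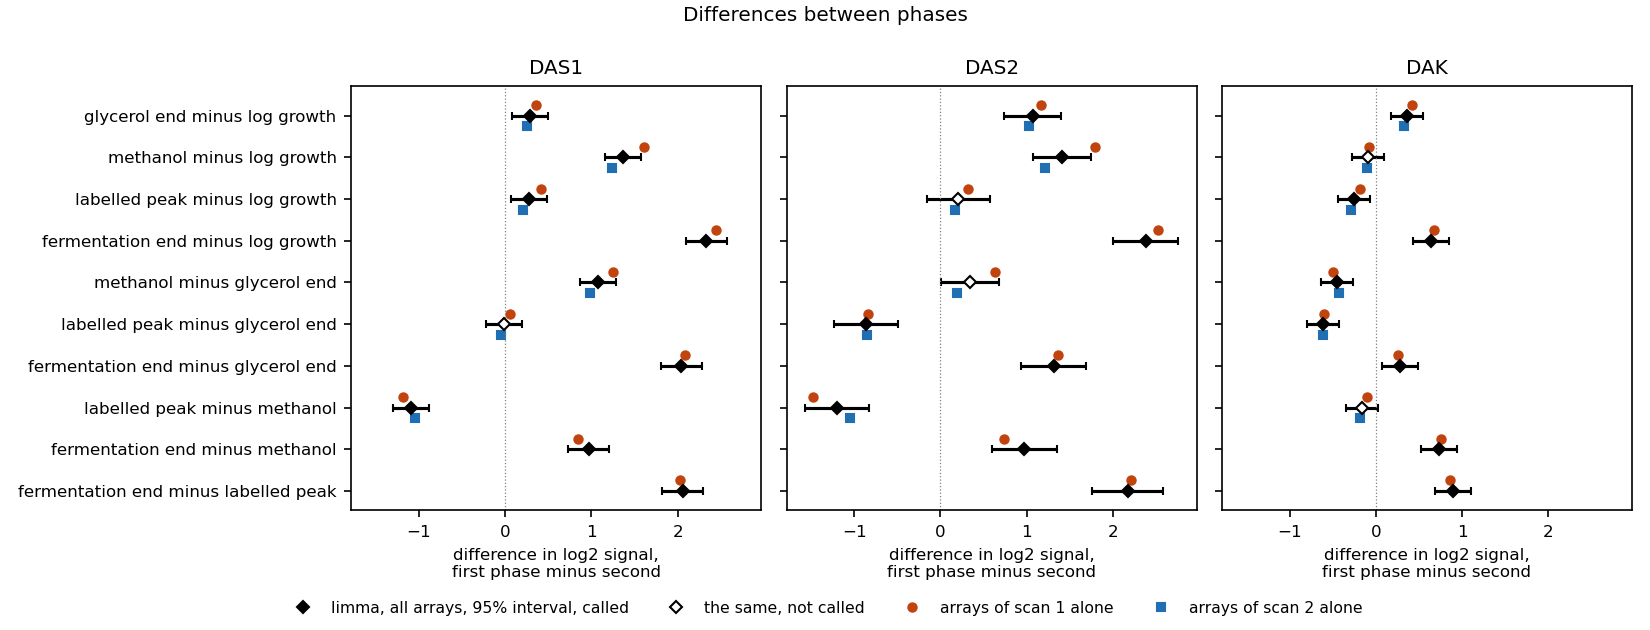
Differences in log2 signal (x axis, first phase named minus second) of DAS1, DAS2 and DAK in the 10 pairs of phases (y axis); diamonds are limma estimates with 95% intervals, filled where the adjusted p was under 0.05, circles are differences on scan 1 alone and squares on scan 2 alone. The largest differences are those of DAS1 and DAS2 at the end of fermentation against logarithmic growth (2.33 and 2.38), and DAK stays under 1 in all pairs.

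By fitted means, the order of DAS1 from low to high was logarithmic growth, labelled rhHSA peak, end of glycerol feeding, methanol adaptation and end of fermentation, and the pair that did not differ beyond its spread was labelled peak with end of glycerol feeding. DAS2 had the same order, but the pairs that did not pass the test were logarithmic growth with labelled peak, and end of glycerol feeding with methanol adaptation. For DAK the order was labelled peak, methanol adaptation, logarithmic growth, end of glycerol feeding and end of fermentation. Neither of the lowest neighbouring pairs of DAK passed the test, although labelled peak and logarithmic growth did.

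The ratio of 2 members on the same array shows whether their signals changed by different amounts, and a constant shift of the whole array cancels in it. Differences between arrays that depend on brightness do not cancel. It says nothing of which transcript is more abundant, since the probes differ. Phase labels were permuted within each scan in every possible way. The log2 ratio of DAS1 to DAS2 differed among the phases (exact permutation p = 0.0139, adjusted p = 0.0139 over the 3 ratios, 14 arrays, 529200 arrangements). Its fitted mean was -0.36 ± 0.057 (SE) in logarithmic growth, -0.40 ± 0.057 in methanol-adapted cells, -0.29 ± 0.069 on the labelled peak and -0.40 ± 0.064 at the end of fermentation. At the end of glycerol feeding it was -1.14 ± 0.057. All 3 arrays of that phase, from -1.23 to -1.06, lay below all 11 other arrays with a value, from -0.54 to -0.17. DAS1 thus changed less than DAS2 between logarithmic growth and the end of glycerol feeding, by -0.78 ± 0.079 (SE), and more than DAS2 from there to methanol, by 0.74 ± 0.079. The former was -0.80 on scan 1 and -0.77 on scan 2, and the latter 0.61 and 0.80. Over the whole span from logarithmic growth to the end of fermentation the changes of the paralogs differed by -0.04 ± 0.089 (SE).

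Each synthase gene also changed by a different amount than the kinase gene. The ratio of DAS1 to DAK differed among the phases (exact permutation p = 4.54e-05, adjusted p = 0.000119, 15 arrays, 2116800 arrangements), as did that of DAS2 to DAK (exact permutation p = 7.94e-05, adjusted p = 0.000119, 14 arrays). From logarithmic growth to methanol adaptation DAS1 gained 1.46 ± 0.10 (SE) on DAK and DAS2 gained 1.50 ± 0.14 (SE). At the end of fermentation the gain over logarithmic growth was 1.69 ± 0.11 and 1.72 ± 0.15 (SE). From logarithmic growth to the end of glycerol feeding DAS1 gained nothing on DAK beyond its error, at -0.07 ± 0.10 (SE), whereas DAS2 gained 0.71 ± 0.14 (SE). How far the probe of each synthase gene also binds the transcript of its paralog was not tested.

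**Figure D3:**
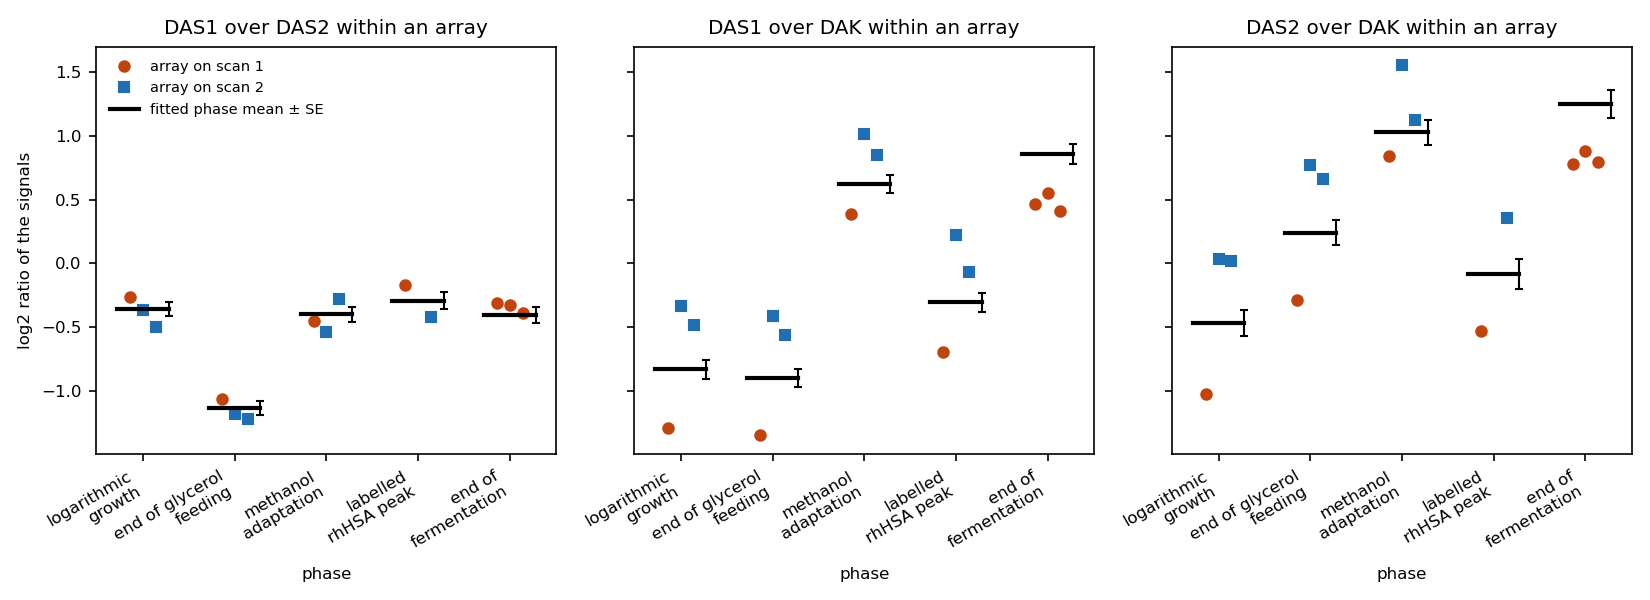
Log2 ratio of the signals of 2 members on the same array (y axis) in the 5 phases (x axis); points are arrays, circles for scan 1 and squares for scan 2, and bars are fitted phase means ± SE. The DAS1 to DAS2 ratio is lower at the end of glycerol feeding (-1.14) than in the other phases (-0.40 to -0.29), and both ratios to DAK are higher in methanol-adapted cells and at the end of fermentation.

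A probe's rank from the brightest of the 5039 tags on its array does not depend on how arrays are scaled. DAS1 ranked 689 to 774 in logarithmic growth, 585 to 597 at the end of glycerol feeding, 157 to 193 in methanol-adapted cells, 609 to 646 on the labelled peak and 18 to 19 at the end of fermentation. DAS2 ranked 545 to 644, 222 to 258, 77 to 97, 428 to 520 and 9 to 10 in the same phases, with flagged spots kept. By rank the 3 methanol arrays of DAS2 did not overlap with the end of glycerol feeding, and array 3 was close to the others. DAK ranked 272 to 561 in logarithmic growth, 186 to 432 at the end of glycerol feeding, 251 to 584 in methanol-adapted cells, 346 to 723 on the labelled peak and 65 to 78 at the end of fermentation. Its scan 1 array was again the highest of each of the earlier 4 phases. Ranks compare brightness of different probes and so give no order of abundance between genes.

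**Figure D4:**
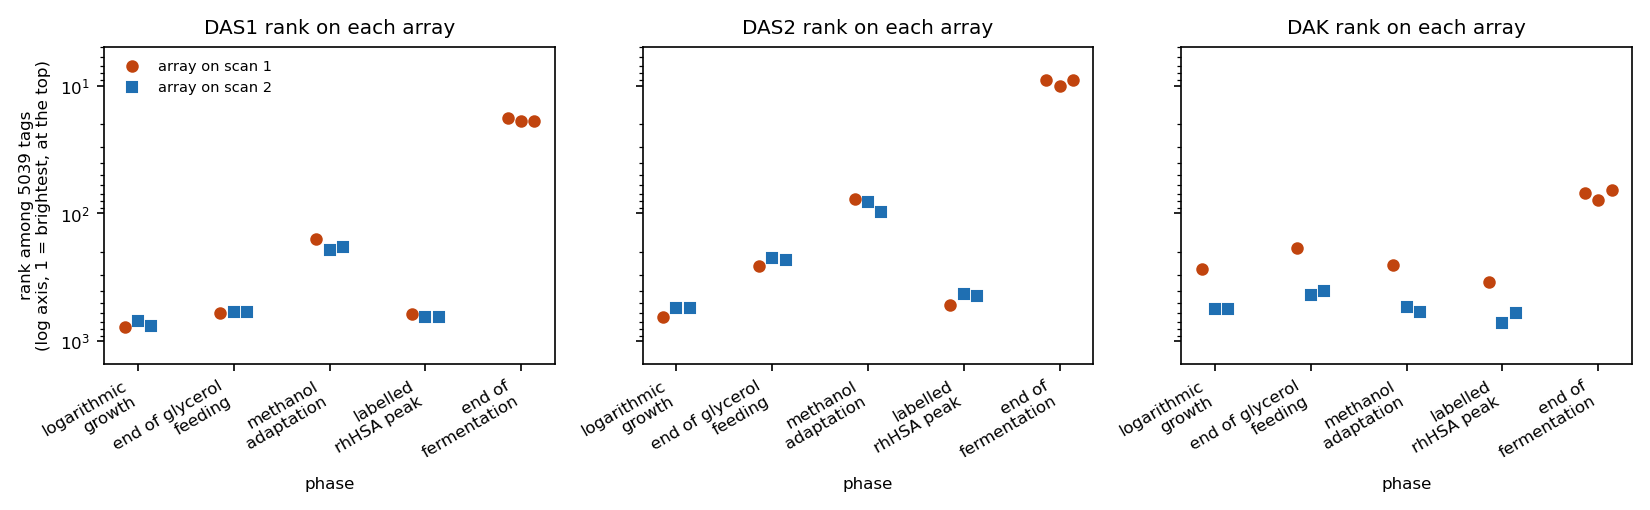
Rank of DAS1, DAS2 and DAK among the 5039 tags of each array (y axis, logarithmic, rank 1 the brightest and at the top) in the 5 phases (x axis); each point is 1 array, circles for scan 1 and squares for scan 2. DAS1 reaches ranks 18 to 19, DAS2 9 to 10 and DAK 65 to 78 at the end of fermentation.

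The authors' table of processed log2 values holds DAS1 and DAK; DAS2 was not analysed in it, and its normalization is unknown here. In it DAS1 read 15.10, 15.27 and 15.15 in logarithmic growth, 15.46, 15.50 and 15.49 at the end of glycerol feeding, and 16.81, 16.68 and 16.71 in methanol-adapted cells. It read 15.44, 15.38 and 15.39 on the labelled peak and 17.76, 17.76 and 17.70 at the end of fermentation. No 2 phases of DAS1 overlapped there, the labelled peak lying just below the end of glycerol feeding. DAK read 15.96, 15.95 and 15.96 in logarithmic growth, 16.27, 16.28 and 16.35 at the end of glycerol feeding and 16.05, 16.01 and 15.92 in methanol-adapted cells. It read 15.71, 15.64 and 15.84 on the labelled peak and 16.81, 16.91 and 16.97 at the end of fermentation. Within each of the earlier 4 phases DAK varied less there than in the scanner values.

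The members carry locus numbers close to each other, and the numbers from PAS_chr3_0829 to PAS_chr3_0844 hold 11 other tags on the array. At the end of glycerol feeding against logarithmic growth 0 of the 11 were called higher and 7 lower by limma, beside 36.3% of all tags called higher and 36.2% called lower. At the end of fermentation against logarithmic growth 6 were called higher and 5 lower (28.1% and 45.9% of all tags), with a median change of 0.25 against -0.22 over all tags. PAS_chr3_0833, numbered between DAS1 and DAS2, moved the other way, with a fitted difference of -1.82 ± 0.062 (SE; limma adjusted p = 3.00e-10) in starved against growing cells. At the end of fermentation it was at -2.07 ± 0.069 (SE; limma adjusted p = 1.45e-10) against logarithmic growth. PAS_chr3_0840, next to DAK by number, was higher at the end of fermentation than in logarithmic growth by 2.28 ± 0.10 (SE; limma adjusted p = 1.32e-09), and PAS_chr3_0836 by 1.67 ± 0.076 (SE; limma adjusted p = 1.68e-09). These 3 neighbours were picked out after their values were seen.

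Likeness to each member was measured as Pearson's r over arrays after the fitted scan difference was taken out, among 2710 other tags that were measured on each of the 15 arrays and whose phase means spanned at least 1 log2 unit. The arrays share phases, so r is a description. Closest to DAS1 were PAS_chr1-3_0215 (r = 0.995), PAS_chr1-4_0531 (0.992) and PAS_chr1-4_0046 (0.988) over 15 arrays. The fitted level of PAS_chr1-3_0215 went from -1.61 in logarithmic growth to -1.30, 0.75, -1.21 and 2.24 in the later phases, a wider course with the same order of phases, apart from the labelled peak, which lay just above the end of glycerol feeding. Closest to DAS2 were PAS_chr3_1071 (r = 0.988), PAS_chr2-1_0355 (0.985) and PAS_chr1-4_0449 (0.984) over 14 arrays. The fitted level of PAS_chr3_1071 went from 0.55 to 1.40, 1.85, 0.65 and 2.99, so that it too was raised in starved cells. Closest to DAK were PAS_chr3_0259 (r = 0.948), PAS_chr1-1_0130 (0.944) and PAS_chr1-4_0315 (0.943) over 15 arrays. An r above 0.9 was reached by 69 tags for DAS1, 104 for DAS2 and 22 for DAK. Between the members r was 0.933 for DAS1 with DAS2, 0.585 for DAS1 with DAK and 0.733 for DAS2 with DAK.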

How the data were processed

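Per the file headers each deposited file is the linear spot intensity of 1 Cy3 array, extracted with Agilent Feature Extraction 10.7.3.1 (version 9.1 in the submitters' processing notes) and background-subtracted within the array. The authors also deposited log2 values for 3915 of 5039 probes (column medians 12.6 to 12.7; r with the scanner values 0.983 to 0.988); their direction is that of the signal and their centring is unknown.

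Log2 processed signal minus the 75th percentile of each array was averaged over the spots of a probe, without outlier-flagged spots (2.26% of values missing). Tags above background on at least 2 of 3 spots of all arrays of a phase were tested (5024). Phase means with scan as a fixed block were fitted to 15 arrays with limma 3.58.1 in R 4.3.3 (Benjamini-Hochberg, threshold 0.05). Ratios were tested by exact permutation within scans in Python 3.11.15. Procedures were tested on simulated data.

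The labels give each array a fermentor number, which recurs in every phase and was taken to pair arrays by fermentor. The data could not decide this. Before the end of fermentation, fermentor 1 was always on scan 1, and fermentors 2 and 3 on scan 2. Removing the scan difference thus also removes any lasting difference of fermentor 1 in those phases. Deviations of same-numbered arrays from their phase means were correlated with and without that removal. With it, r ran from -0.433 to 0.272, -0.189 to 0.704 and -0.583 to 0.789 for fermentors 1 to 3. Without it, r ran from -0.036 to 0.944, 0.165 to 0.917 and -0.301 to 0.892, values that hold the scan difference. The fermentor was fitted as a block as an alternative. The members, lists and tests were chosen with earlier results of these data known. Named tags were the members, 3 closest tags each by likeness, and locus neighbours. Other methanol genes are not reported, since the sources used here give no names to their tags. The background correction alternative used median spot signals, the mean signal not being among the columns.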

Additional observations from a re-analysis of the deposited data

How the results depend on the processing

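Scaling, background correction, filters, blocks, array weights and left-out arrays were varied one at a time, unless 2 are named together. The authors' values without a scan term, the ratios with growth arrays 2 and 3 averaged, and the fit without all arrays labelled rhHSA peak, were chosen after seeing the data. The F-tests of the 3 members kept their call in all 85 alternative values and the 3 ratio tests in all 56. Of 886 values for members in pairs of phases, 840 kept direction and call, and the exceptions follow in log2 units. Causes were not tested.

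Without a scan term calls were lost for DAS1 (0.29) and DAK (0.36) in starved against growing cells, for DAS1 (0.28) and DAK (-0.25) on the labelled peak against growth, and for DAK in methanol (-0.45) and on the labelled peak (-0.61) against starved cells. With the fermentor as a replicate block in place of scan, which changes both terms, DAK at 0.36 in starved against growing cells and DAS1 at 0.28 and DAK at -0.25 on the labelled peak against growth were lost; they were lost without scan alone as well. With scan kept, the replicate block lost DAK at 0.30 between the end of fermentation and starved cells and changed no other member's call. On scan 2 alone, DAS1 (0.26) and DAK (0.33) in starved against growing cells, and DAS1 (0.20) and DAK (-0.29) on the labelled peak against growth, were lost. That last DAK call was also lost with median centring (-0.18), quantile normalization (-0.17), normexp (-0.21), only the arrays of both phases (-0.25) and growth arrays 2 and 3 averaged (-0.24). Calls gained were DAS2 in methanol against starved cells (0.69 with quantile normalization, 0.59 with array weights), DAS2 on the labelled peak against growth (0.17 with array weights) and DAK on the labelled peak against methanol (-0.18 with quantile normalization, -0.26 in the authors' values with or without scan). Signs turned, with no call, for DAS1 on the labelled peak against starved cells (0.043 with median centring, 0.023 with array weights) and for DAK in methanol against growth (0.013 with quantile normalization, 0.033 in the authors' values with or without scan).

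With 1 array left out, starved against growing cells ran from 0.21 to 0.36 for DAS1. The labelled peak against growth ran from 0.20 to 0.35 for DAS1, 0.095 to 0.25 for DAS2 and -0.31 to -0.17 for DAK. Methanol against starved cells ran from 0.18 to 0.57 for DAS2. The labelled peak against starved cells ran from -0.044 to 0.0014 for DAS1, turning sign without glycerol end array 3 (0.0014) or labelled peak array 3 (0.00088). The end of fermentation against starved cells ran from 0.24 to 0.34 for DAK, and the labelled peak against methanol from -0.22 to -0.083 for DAK.

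Tags called fell without the scan term from 3640 to 2179 in starved against growing cells, from 2913 to 1097 on the labelled peak against growth (1886 on scan 2 alone), from 3182 to 1427 in methanol against starved cells, from 3444 to 1915 on the labelled peak against starved cells and from 3743 to 2435 against methanol. With 3 arrays a phase, and the last phase on 1 scan, small differences are imprecise; signal over background did not limit the members.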
